A study of Ovis aries with 3 samples.

Results

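The miRNAs oar-miR-16b, oar-miR-103 and oar-miR-107 were taken by their names from the count tables of sheep intestine and make up 3 of the 822 entries and 3 of the 146 known sheep miRNAs. They are grouped because the start of their sequences is shared. Small RNA was sequenced from the duodenum (DU), cecum (CE) and colon (CO) of Small tailed Han sheep, with tissue labelled as epithelium of the intestinal mucosa. RNA of the same 3 untreated ewes, each 11 months old, was pooled for every library. With 1 library per segment, the spread between animals could not be measured. Intervals and p-values given here describe the counting of reads in these libraries, not the segments, and reads without molecular identifiers are not independent molecules. In such bulk tissue, fewer cells of a type and less RNA per cell cannot be told apart.

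A miRNA pairs with its target mRNAs mainly through its seed, bases 2 to 8 from the 5′ end, and lowers their stability and translation. The miR-15/16 family is best known for repressing cell cycle genes such as cyclin D1 and the survival gene BCL2. miR-103 and miR-107 are produced from introns of the PANK genes, which encode pantothenate kinases, the enzymes that open coenzyme A synthesis, and they are known to repress DICER1 and caveolin-1. miR-16 and miR-103 are broadly expressed and are often used as reference miRNAs in qRT-PCR. In the RefSeq gene table of assembly ARS-UI_Ramb_v3.0, MIR16B lies within the span of SMC4, a condensin subunit gene, MIR103 within PANK3 and MIR107 within PANK1.

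The mature sequences in the count files are shown 5′ to 3′ because the grouping and the reading of the counts both rest on them. Capitals mark the seed.
oar-miR-16b: tAGCAGCAcgtaaatattgg
oar-miR-103: aGCAGCATtgtacagggctatg
oar-miR-107: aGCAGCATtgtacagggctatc

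The longest run that oar-miR-16b shared with either of the others was AGCAGCA, 7 bases, which starts at base 2 of oar-miR-16b and at base 1 of oar-miR-103 and oar-miR-107. The seeds are therefore the same run shifted by 1 base, AGCAGCA in oar-miR-16b and GCAGCAT in the other two. oar-miR-103 and oar-miR-107 were identical over their first 21 bases and differed only by G22C, counted from the 5′ end with the base of oar-miR-103 first, the last base of each. A read that ends before base 22 fits both sequences. The authors required a perfect match to a precursor and at least 16 matching bases of the mature miRNA, and how a read fitting both was assigned is not given in the sources used here.

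The sequence of oar-miR-16b, 20 nt long, is also the beginning of 4 longer miR-16 sequences of other species in the supplementary miRNA list, shown here because they differ from it only in the bases beyond its 3′ end, which are in capitals.
bta-miR-16a: tagcagcacgtaaatattggTG
cfa-miR-16: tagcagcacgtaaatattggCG
chi-miR-16a-5p: tagcagcacgtaaatattggAG
chi-miR-16b-5p: tagcagcacgtaaatattggGG

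None of these 4 sequences was an entry of the count files, and no other entry shared a run of 16 bases with oar-miR-16b. Reads of 20 nt from any miR-16 gene cannot be told apart by sequence, so the value of oar-miR-16b may hold reads of more than 1 gene. For oar-miR-103, 2 longer sequences of the list contained it, and neither was an entry.

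The counts added up to between 13769740 and 15072945 reads per library, or 83.1 to 88.6% of the genome-mapped reads, and 3 reads equalled 0.176 to 0.181 normalized reads. A normalized read is a count per 1000000 clean reads mapped to the genome. Of the smooth muscle and mesenchyme markers, oar-miR-143 and oar-miR-133, 2 of 4 on the list, had entries, and their sum was 275517, 429636 and 399532 normalized reads in duodenum, cecum and colon. All 8 epithelial markers had entries, with sums of 142048, 49949 and 38663 normalized reads in the same order. The miR-192 entries held 57806, 28847.5 and 0 normalized reads. The colonic sum thus lacks this marker and cannot be set against the sums of duodenum and cecum. Whether the 0 is a true absence was not tested. The difference between duodenum and cecum lay mainly in miR-192 and miR-215. The other epithelial markers were split between duodenum and colon. oar-miR-200a was at 6756, 5122 and 9655 and was higher in the colon, as were oar-miR-200b, oar-miR-200c, miR-141 and miR-429. oar-miR-194 was at 9162, 4306 and 6071 and miR-215 at 55441, 435 and 4830, both highest in the duodenum. The miRNAs of the labelled epithelium were thus present, beside an abundant miR-143, which is known from smooth muscle and stroma.

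oar-miR-103 was the most abundant of the 3 miRNAs in each library, oar-miR-16b followed closely, and oar-miR-107 was far lower. oar-miR-103 had 16741 reads in the duodenal library, 12882 in the cecal library and 11470 in the colonic library, or 1000.4, 758 and 692 normalized reads. Its level was highest in the duodenum and lowest in the colon. oar-miR-16b had 13722, 11139 and 11117 reads in the same order, or 820.0, 655 and 671 normalized reads. It was also highest in the duodenum, but its cecum and colon levels lay next to each other. oar-miR-107 had 834, 724 and 757 reads, or 49.8, 42.6 and 45.7 normalized reads, and its highest library exceeded its lowest by the smallest ratio of the 3 miRNAs.

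**Figure D1:**
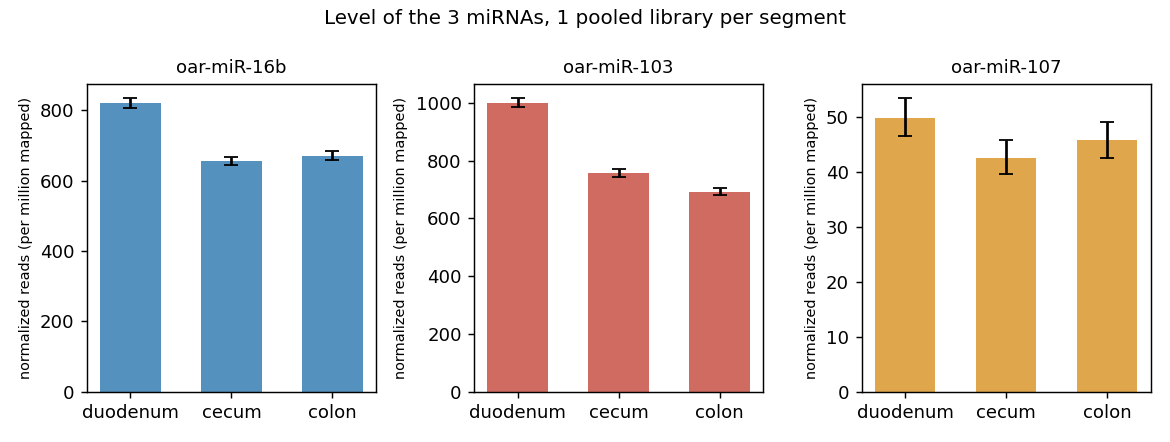
Normalized reads (counts per 1000000 genome-mapped clean reads, y axis from 0) of oar-miR-16b, oar-miR-103 and oar-miR-107 in the duodenum, cecum and colon libraries (x axis), with 1 pooled library per bar and Wilson 95% intervals for counting error as error bars. The duodenum bar is the tallest for oar-miR-16b (820.0 against 655 and 671) and oar-miR-103 (1000.4 against 758 and 692), while for oar-miR-107 the interval of the colon overlaps those of the other two and the intervals of duodenum (46.6 to 53.3) and cecum (39.6 to 45.8) lie just apart.

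With these counts, the Wilson 95% intervals were narrow for the abundant miRNAs, from 985 to 1016 normalized reads for oar-miR-103 in the duodenal library, and wide for oar-miR-107, from 46.6 to 53.3. Among the 146 known miRNAs, oar-miR-103 ranked 31 in the duodenal library and 32 in both libraries of the large intestine. oar-miR-16b ranked 32, 35 and 33, and oar-miR-107 ranked 55, 59 and 59. Among all 822 entries, oar-miR-103 held rank 51 in every library. A neighbour in rank among the known miRNAs was oar-miR-16b itself in the DU and CO libraries, while in the cecal library oar-miR-152 (801 normalized reads) stood above it and oar-miR-127 (737) below it. Together, the 3 miRNAs took 0.285% of the reads of known miRNAs in the duodenal library, 0.186% in the cecal library and 0.188% in the colonic library.

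The comparison of the duodenum and the cecum asks which miRNAs differ between the small and the large intestine. oar-miR-103 was lower in the cecum, with a log2 ratio of CE to DU of -0.40 (exact 95% interval -0.43 to -0.37), a change of -24.3% in normalized reads. oar-miR-16b was lower as well, with a log2 ratio of -0.32 (-0.36 to -0.29), a change of -20.1%. The log2 ratio of oar-miR-107 was -0.23 (-0.37 to -0.08), an interval without 0, but it did not pass the correction for all entries. By the exact Audic-Claverie test with Bonferroni correction over the 348 entries tested, the corrected p-values were 4.78e-123, 2.70e-67 and 0.662 for oar-miR-103, oar-miR-16b and oar-miR-107. A call required a 2-fold difference besides a corrected p-value under 0.01. Of the 3 miRNAs, 0 were called, while 36.5% of all entries and 11.8% of the known miRNAs tested were called. Without the fold change, 2 of the 3 passed with lower reads in the cecal library, beside 42.5% of all entries and 30.1% of known miRNAs. At these depths differences well under 2-fold could pass the counting test, as those of oar-miR-103 and oar-miR-16b did. Of all entries tested, 237 passed in either direction without the fold change and 127 with it.

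Between the duodenum and the colon, oar-miR-103 showed the largest difference of the 3 miRNAs. Its log2 ratio of CO to DU was -0.53 (exact 95% interval -0.57 to -0.50), a change of -30.8% in normalized reads (corrected p = 1.42e-203, exact Audic-Claverie test, 363 entries tested). oar-miR-16b had a log2 ratio of -0.29 (-0.33 to -0.25, corrected p = 2.24e-53, exact Audic-Claverie test), a change of -18.2%. oar-miR-107 did not differ beyond counting error, with a log2 ratio of -0.13 (-0.27 to 0.02, corrected p = 1, exact Audic-Claverie test), and its direction turned to 0.03 with the library sizes of the TMM method of edgeR. Again 0 of the 3 reached a fold change of 2, with 33.9% of all entries and 6.38% of known miRNAs called. Without the fold change, 2 of the 3 passed with lower reads in the colonic library, beside 37.5% of all entries and 33% of known miRNAs.

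The colon and the cecum, both of the large intestine, differed little in these miRNAs. oar-miR-103 was 9.42% higher in the cecal library, with a log2 ratio of CE to CO of 0.13 (exact 95% interval 0.09 to 0.17, corrected p = 7.86e-10, exact Audic-Claverie test, 326 entries tested). oar-miR-16b had a log2 ratio of -0.03 (-0.07 to 0.003), and its sign turned with the size factors of DESeq2 (0.02). oar-miR-107 had a log2 ratio of -0.10 (-0.25 to 0.05), and the corrected p-value was 1 for both in the exact Audic-Claverie test. None of the 3 was called, against 22.7% of all entries and 2.13% of known miRNAs. Without the fold change, 1 of the 3 passed with higher reads in the cecal library, beside 25.5% of all entries and 30.9% of known miRNAs. With the sum of the counts in each file as the library size, the pass of oar-miR-103 was lost (log2 ratio 0.04, corrected p = 1) and oar-miR-16b passed with lower reads in the cecal library (log2 ratio -0.13, corrected p = 1.37e-08, exact Audic-Claverie test for both).

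These tests take account of counting error only. When a biological coefficient of variation of 0.2 or 0.4 was assumed in edgeR's exact test, each of the 3 miRNAs had a corrected p-value of 1 in each comparison. Markers of other cells also moved between the libraries. The leukocyte markers with an entry, oar-miR-150 and the miR-155 entry, 2 of 5 on the list, summed to 895, 471 and 619 normalized reads in duodenum, cecum and colon. For red blood cells, which are rich in miR-16, the sum was 41.6, 38.8 and 28.7, nearly all from miR-486, while the miR-451 entry was listed at 0 in every library. The other 3 leukocyte markers had no matched entry and were not analysed here. Of these, the paper does list cgr-miR-142-5p among the differentially expressed miRNAs it measured by qRT-PCR. The part of these cells, or of the epithelial and muscle markers given above, in the levels of the 3 miRNAs was not tested.

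With the mapped reads as library size, the difference of oar-miR-16b and oar-miR-107 over the libraries was small beside that of other known miRNAs. That of oar-miR-103 was of a middle size. These orders depend on the library size and were not computed with the other library sizes. Among the 74 known miRNAs with at least 100 reads in every library, the highest library exceeded the lowest by a median of 0.62 on the log2 scale, with a range from 0.02 to 3.42. The value was 0.23 for oar-miR-107, the 6th smallest, 0.32 for oar-miR-16b, the 9th smallest, and 0.53 for oar-miR-103, the 30th smallest. Expressed as a ratio of the highest to the lowest library, these were 1.17, 1.25 and 1.45. Of the 74 miRNAs, 28 were highest in the duodenal library, as were all 3 members with these library sizes. With the TMM library sizes, oar-miR-107 was slightly higher in the colonic than in the duodenal library.

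**Figure D2:**
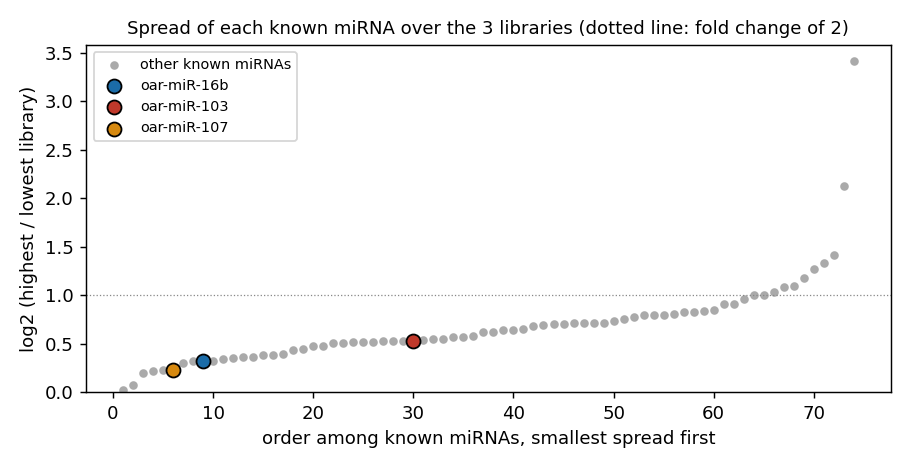
Log2 of the highest over the lowest normalized level among the duodenum, cecum and colon libraries (y axis) for each of the 74 known miRNAs with at least 100 reads in every library, ordered from the smallest (x axis). oar-miR-107 (0.23) and oar-miR-16b (0.32) lie near the left end, and oar-miR-103 (0.53) lies below the median of 0.62.

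When the counts of each library were scaled to a member instead of the mapped reads, all log2 ratios moved by the member's own ratio. Scaled to oar-miR-16b, 64 entries were called higher and 58 lower in the cecal than in the duodenal library, in place of 42 and 85. Scaled to oar-miR-103, the numbers were 71 and 53, and scaled to oar-miR-107 they were 58 and 65. For the DU and CO libraries, scaling to oar-miR-103 gave 92 entries higher and 55 lower in the colonic library, in place of 50 and 73, and scaling to oar-miR-16b gave 68 and 63. Scaling to oar-miR-107 gave 58 and 67 there. Between the colonic and cecal libraries, 32 entries were higher and 42 lower in the cecum, and the numbers were 33 and 42 scaled to oar-miR-16b, 31 and 52 scaled to oar-miR-103, and 37 and 39 scaled to oar-miR-107. These numbers follow by construction from the shift and say nothing on which scaling is right, and the scalings were chosen after seeing the data.

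The ratio of oar-miR-103 to oar-miR-107 does not depend on the library size, since both counts come from the same library. Reads that end before the differing last base fit both miRNAs, and how they were assigned is not known. The ratio can therefore depend on that assignment and on the share of such reads in each library, which was not tested. It was 20.1 in the duodenal library (exact 95% interval 18.7 to 21.5), 17.8 in the cecal library (16.5 to 19.2) and 15.2 in the colonic library (14.1 to 16.3). oar-miR-107 accordingly made up 4.75%, 5.32% and 6.19% of the reads of both. From DU to CO the ratio changed by -0.41 on the log2 scale (-0.55 to -0.26, p = 5.70e-08, two-sided Fisher's exact test), and the Bonferroni-corrected p-value over 9 comparisons of ratios was 5.13e-07. The changes of 0.23 from CO to CE (0.08 to 0.39, p = 0.00292, corrected p = 0.0263, Fisher's exact test) and of -0.17 from DU to CE (-0.32 to -0.02, p = 0.0211, corrected p = 0.190, Fisher's exact test) did not reach a corrected p-value under 0.01. Only the duodenal and colonic libraries, which held the highest and the lowest ratio, thus differed past this threshold.

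**Figure D3:**
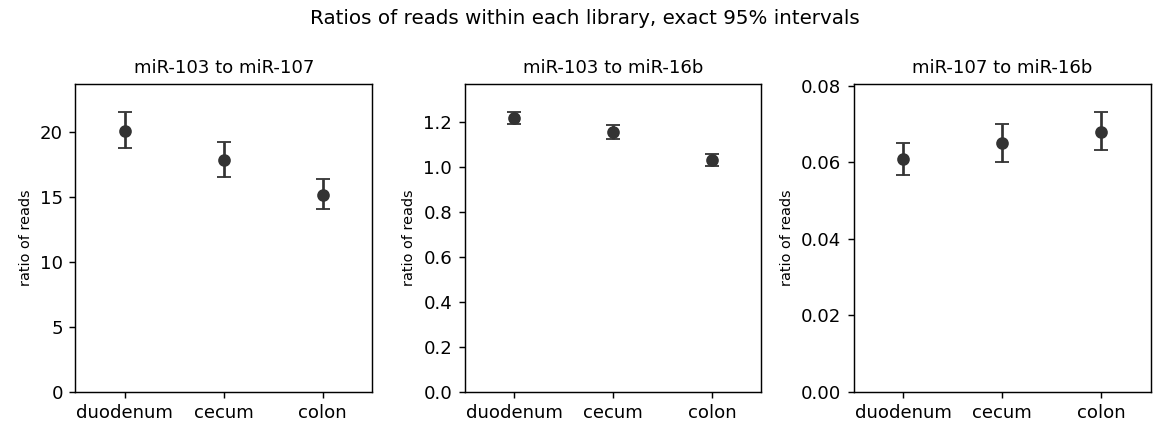
Ratio of reads (y axis from 0) of miR-103 to miR-107, miR-103 to miR-16b and miR-107 to miR-16b in the duodenum, cecum and colon libraries (x axis), with exact 95% intervals for counting error. The ratio of miR-103 to miR-107 is 20.1, 17.8 and 15.2 and that of miR-103 to miR-16b is 1.22, 1.16 and 1.03. The intervals of duodenum and cecum overlap for miR-103 to miR-107, no intervals overlap for miR-103 to miR-16b, and all intervals overlap for miR-107 to miR-16b.

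Set beside other miRNAs, this shift was not large. Over the 2701 pairs of the 74 known miRNAs, the ratio of 37.8% of pairs moved less between the DU and CO libraries, where the median shift of a pair was 0.57 on the log2 scale. Pairs of known miRNAs that share their whole seed are a closer comparison, and 36 such pairs from 11 seeds had at least 100 reads in every library. Most of the 36 pairs were overlapping pairs within the let-7 and miR-30 families, and the pair of oar-miR-103 and oar-miR-107 was itself among them. The log2 ratio of the 36 pairs moved over the libraries by 0.04 to 1.63, with a median of 0.39. The pair of oar-miR-103 and oar-miR-107, with 0.41, was the 21st smallest. Of the 5 pairs of known miRNAs that differed by 1 base, the only other with reads of both in every library was oar-let-7a and oar-let-7c, which differ by A19G. Their log2 ratio was 3.37, 3.44 and 3.66 in duodenum, cecum and colon.

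oar-miR-103 and oar-miR-16b were close to each other in level, and their ratio fell from the duodenum to the colon. There were 1.22 reads of oar-miR-103 per read of oar-miR-16b in the duodenal library (exact 95% interval 1.19 to 1.25), 1.16 in the cecal library (1.13 to 1.19) and 1.03 in the colonic library (1.01 to 1.06). The log2 shift was -0.24 from DU to CO (-0.29 to -0.19, corrected p = 1.54e-20), -0.08 from DU to CE (-0.13 to -0.03, corrected p = 0.0184) and 0.16 from CO to CE (0.11 to 0.22, corrected p = 7.32e-09) in Fisher's exact test over the same 9 comparisons, so the shift from DU to CE did not pass the threshold of 0.01. The ratio of oar-miR-107 to oar-miR-16b, at 0.0608, 0.0650 and 0.0681, passed the correction in none of the 3 comparisons, with a largest log2 shift of 0.16 from DU to CO (0.02 to 0.31, corrected p = 0.261, Fisher's exact test). Of the 3 ratios, the ones that passed the correction between DU and CO were both ratios of oar-miR-103.

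By the shape of its change over the 3 libraries, each member was set beside the 73 other known miRNAs with at least 100 reads in every library, using the distance between their log2 ratios of CE to DU and of CO to DU. oar-miR-106b (distance 0.06), oar-miR-181a (0.08) and oar-miR-19b (0.10) were nearest to oar-miR-16b. oar-let-7g (0.10), oar-miR-218a (0.12) and oar-miR-99a (0.12) were nearest to oar-miR-103. oar-let-7b (0.16), oar-miR-16b itself (0.19) and oar-miR-22-3p (0.19) were nearest to oar-miR-107. The near-identical oar-miR-103 was only the 17th nearest to oar-miR-107, at a distance of 0.44, and oar-miR-107 was the 24th nearest to oar-miR-103. With 3 libraries, each distance rests on 2 ratios that share the duodenal library. Counting error was not carried into the distances. The intervals of the ratios of oar-miR-107 (-0.37 to -0.08 and -0.27 to 0.02) are wide beside its nearest distances, so the order of its neighbours is not settled. Reads that fit both oar-miR-103 and oar-miR-107 can also affect the distance between them.

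**Figure D4:**
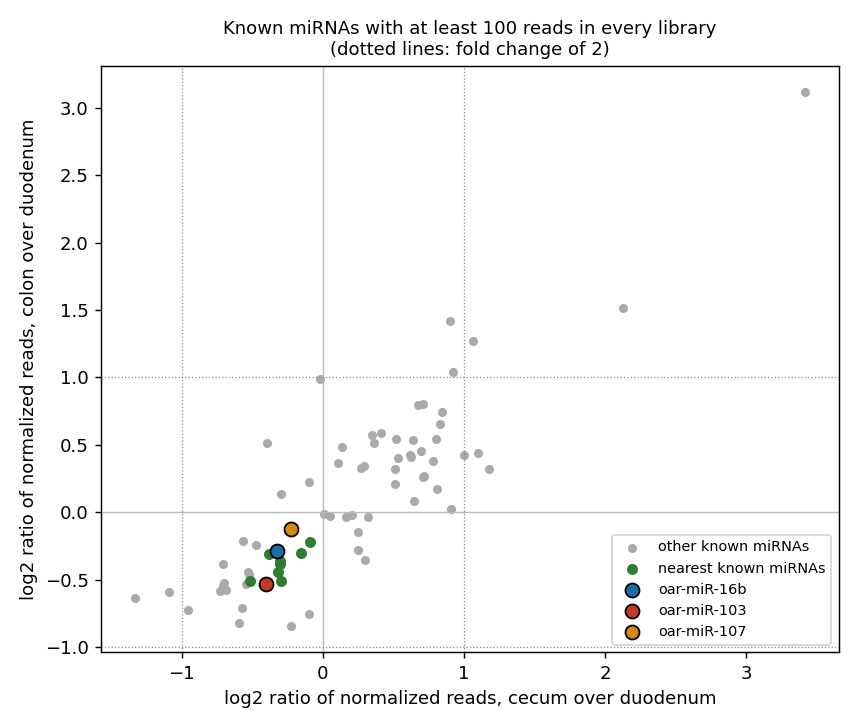
Log2 ratio of normalized reads of cecum over duodenum (x axis) and colon over duodenum (y axis) for the 74 known miRNAs with at least 100 reads in every library, with the nearest known miRNAs of each member in green and a fold change of 2 as dotted lines. All 3 members lie in the lower left quadrant inside the dotted lines, from oar-miR-107 (-0.23 and -0.13) to oar-miR-103 (-0.40 and -0.53), although the colon ratio of oar-miR-107 turned to 0.03 with the TMM library sizes.

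In all, 8 entries of the files carried AGCAGC from base 1 or base 2, the 3 members and 5 predicted entries. The sequences of these predicted relatives are shown with the seed in capitals because they decide which of them share the seed of oar-miR-16b. By identical sequence in the supplementary list, novel_mir_32 is miR-15b, novel_mir_163 is miR-497 and novel_mir_384 is miR-503-5p.
novel_mir_32: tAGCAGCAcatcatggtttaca
novel_mir_163: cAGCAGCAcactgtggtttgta
novel_mir_384: tAGCAGCGggaacagtactg
novel_mir_279: tAGCAGCGggaacagtactgcag
novel_mir_599: aGCAGCTGttgggctctcgccaga

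The seed of oar-miR-16b was thus shared by miR-15b and miR-497, and that of oar-miR-103 only by oar-miR-107. Summed by seed, AGCAGCA took 928, 752 and 750.1 normalized reads in duodenum, cecum and colon, and GCAGCAT took 1050.3, 800.1 and 738. The ratio of the GCAGCAT to the AGCAGCA reads was 1.13 in the duodenal library (exact 95% interval 1.11 to 1.16), 1.06 in the cecal library (1.04 to 1.09) and 0.984 in the colonic library (0.960 to 1.01). Among the entries counted, the seed of oar-miR-103 and oar-miR-107 was therefore the more abundant in the DU and CE libraries, and the interval of the colonic library held 1. The 4 longer miR-16 sequences and the 2 longer forms of oar-miR-103 had no entry and are not in these sums. With ratios this near 1, the order of the seeds could depend on them. From DU to CO the ratio shifted by -0.20 on the log2 scale (-0.25 to -0.15, corrected p = 4.69e-16, Fisher's exact test over 6 comparisons).

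miR-15b, which is produced from the same SMC4 host gene as a miR-16 copy in mammals and acts on the same seed matches, changed more than oar-miR-16b. It had 663, 314 and 255 reads in duodenum, cecum and colon, or 39.6, 18.5 and 15.4 normalized reads. Its level was 2.15-fold and 2.57-fold higher in the duodenum than in the cecum and the colon, with log2 ratios of -1.10 to the cecal library (exact 95% interval -1.30 to -0.91, corrected p = 3.16e-28) and -1.36 to the colonic library (-1.58 to -1.15, corrected p = 2.99e-39) in the exact Audic-Claverie test. The reads of oar-miR-16b per read of miR-15b were 20.7 in the duodenal library (exact 95% interval 19.1 to 22.4), 35.5 in the cecal library (31.7 to 39.8) and 43.6 in the colonic library (38.5 to 49.6). This ratio shifted by 0.78 on the log2 scale from DU to CE (0.58 to 0.98, corrected p = 1.48e-14) and by 1.07 from DU to CO (0.86 to 1.29, corrected p = 1.79e-24, Fisher's exact test over the same 6 comparisons). The 6 comparisons of seeds and of miR-15b were chosen after the values were seen. The paper measured age-miR-15b by qRT-PCR and does not name it among the miRNAs whose trend differed from its sequencing. Whether that name covers the same reads as the miR-15b entry used here was not tested.

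miR-497, of the same seed, had 1137, 1342 and 1055 reads in duodenum, cecum and colon, or 67.9, 78.9 and 63.7 normalized reads. Unlike the members, its level was highest in the cecum, and it was higher there than in the colon by 0.31 on the log2 scale (exact 95% interval 0.19 to 0.43, corrected p = 6.15e-05, exact Audic-Claverie test). Against the duodenal library, its log2 ratios of 0.22 in the cecal library (0.10 to 0.33, corrected p = 0.0754) and -0.09 in the colonic library (-0.22 to 0.03, corrected p = 1) did not pass the exact Audic-Claverie test.

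miR-503-5p was split over 2 entries, of which the 23-nt entry contains the 20-nt entry and is 3 nt longer. The 20-nt entry had 60, 0 and 37 reads in duodenum, cecum and colon, while the 23-nt entry had 0, 35 and 0 reads. No library had reads of both, and taken singly each was called between the cecal library and both other libraries. Added up, the reads were 60, 35 and 37, with log2 ratios of -0.80 from DU to CE (exact 95% interval -1.45 to -0.18), -0.68 from DU to CO (-1.31 to -0.07) and -0.12 from CO to CE (-0.83 to 0.59). The corrected p-value was then 1 in each comparison in the exact Audic-Claverie test. novel_mir_599 had 14 reads in the duodenal library and 0 reads in both libraries of the large intestine, and was not tested since it stayed under 1 normalized read. The smallest count above 0 was 5 in the predicted entries, so a 0 there can stand for fewer reads and no fold change is given. Apart from oar-miR-103 and oar-miR-107 with each other, no entry shared a run of 16 bases with a member, miR-15b or miR-497. A split of this kind was thus not found for them among the entries, and names of the paper without an entry could not be searched.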

How the data were processed

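Total RNA of 3 ewes was pooled per segment and small RNA libraries were sequenced on an Illumina platform. Per the methods of the study, clean reads of at least 18 nt were mapped to Oar_v4.0 with SOAP v2.21 (the processing notes of the submitters name Bowtie), known miRNAs were identified with miRBase 21.0, and others were predicted with miReap. The authors deposited raw read counts per miRNA entry, without normalization. The members and lists were chosen with earlier results of these data known.

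Counts were divided by the clean reads mapped to the genome, whose numbers the study gives, per 1000000. The formula printed in the paper divides by all clean reads instead. With all clean reads, 96 of 300 tested entries were called between DU and CE, 101 of 319 between DU and CO and 67 of 295 between CO and CE. The mapped reads gave 127 of 348, 123 of 363 and 74 of 326. The log2 ratio of CO to DU of oar-miR-107 was -0.02 with all clean reads. Entries that reached 1 normalized read in one of the libraries compared entered the exact Audic-Claverie test (2 times the smaller tail) and Bonferroni correction over all entries tested. A call required a 2-fold difference besides a corrected p-value under 0.01, with 0.01 in place of normalized values of 0. The quasi-likelihood test of edgeR was not used, since 1 library per segment leaves no residual degrees of freedom. Intervals of log2 ratios come from the exact binomial split of the reads, intervals of levels are Wilson 95% intervals, and ratios of miRNAs were compared with two-sided Fisher's exact tests. miRNAs were named by a rule: the 3 members, entries with AGCAGC at base 1 or 2 or nested with a member, the 3 nearest known miRNAs of each member, and the miRNAs next to a member in rank. Marker miRNAs were matched by name or by a shared run of 19 bases with their sequence in the supplementary list.

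Python 3.11.15, SciPy 1.17.1, edgeR 4.0.16 and DESeq2 1.42.0 were used, and the test was checked on simulated counts. The simulated counts held counting error only, with changes larger than those of the members. The check therefore says nothing on the spread between animals. Alternatives changed the library size, the filter on low counts, the correction, the test, and the pseudocount. Precursor coordinates were used only to find the genes that span each member, because the gene table is of another assembly than the files.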

Additional observations from a re-analysis of the deposited data

How the results depend on the processing

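Under other library sizes, filters, corrections, tests and pseudocounts, including settings chosen after seeing the data, 141 values were recomputed. Of these, 132 were counted as unchanged. For counts of entries called, unchanged meant within 1.5 times. For log2 ratios of members, it came down to the sign. These ran from -0.53 to 0.18 over all settings, so no member could gain or lose a 2-fold call. The ratios between miRNAs had no 2-fold call, and all kept their direction with 1 read added, the only alternative tried for them. By the corrected p-value alone, more log2 ratios of members changed. The passes of oar-miR-103 in all 3 comparisons and of oar-miR-16b between DU and CE and between DU and CO were lost with both assumed coefficients of variation (corrected p = 1, edgeR's exact test). With the sum of counts as library size, the pass of oar-miR-103 between CO and CE was lost and oar-miR-16b gained one there (corrected p = 1.37e-08, exact Audic-Claverie test). Of the log2 ratios of members, 2 turned their sign, both at corrected p = 1 in the exact Audic-Claverie test. These were oar-miR-107 between the DU and CO libraries with TMM library sizes (0.0316) and oar-miR-16b between the CO and CE libraries with DESeq2 size factors (0.0170). The TMM library sizes shifted all log2 ratios by 0.12 from DU to CE and by 0.16 from DU to CO, and relative to that shift the members keep the ratios given above. Leaving out entries with fewer than 10 reads in one of the libraries lowered the entries called to 48 (DU and CE), 35 (DU and CO) and 15 (CO and CE), since fewer entries could be called. When a biological coefficient of variation of 0.4 was assumed in edgeR's exact test, these were 38, 40 and 31, and with 0.2 the number for DU and CE was 76, both by a wider assumed spread. Adding the reads of oar-miR-103 and oar-miR-107 gave log2 ratios of -0.39 (DU to CE), -0.51 (DU to CO) and 0.12 (CO to CE). With Benjamini-Hochberg adjustment, oar-miR-107 gained a pass between DU and CE (adjusted p = 0.00255, exact Audic-Claverie test). No entry was nested with a member, so adding up such entries gave no value. No paired analysis was possible because each segment had 1 library. Depth limits oar-miR-107 most, whose 724 to 834 reads left an interval of -0.27 to 0.02 for its log2 ratio of CO to DU.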
